A study of Mus musculus with 8 samples.

Results

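Chromatin accessibility was compared between the cortex (CTX) and the medial ganglionic eminence (MGE) of WT mouse embryos, using single-nucleus ATAC-seq, a droplet assay in which a transposase cuts open chromatin in isolated nuclei. The comparison used 4 of the 8 samples of the series, 2 labelled CTX and 2 labelled MGE; the other samples came from the lateral and caudal ganglionic eminences. CTX replicate 1 and both MGE replicates were labelled E12.5, and CTX replicate 2 was labelled E14.5. All 4 were WT brain tissue with no transgene, treatment or sort named in the labels, and nothing in them says whether embryos were pooled or whether replicates came from separate litters, so p-values measure the spread between these samples only. In the CTX pair, age and replicate number cannot be told apart. Counts were summed over all nuclei of a sample, so a smaller share of cells of a type and less accessibility per cell cannot be told apart.

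The CTX is the dorsal part, or pallium, of the embryonic telencephalon, and its ventricular zone (VZ) gives rise to glutamatergic projection neurons. The MGE is a ventral swelling that produces GABAergic interneurons and other GABAergic and cholinergic cells. The dorsal identity is associated with transcription factors such as Emx1, Emx2, Pax6 and the proneural factor Neurog2. The ventral identity is associated with Gsx2, the Dlx family and, in the MGE in particular, Nkx2-1, a homeodomain factor that acts downstream of Sonic hedgehog signalling. Open chromatin away from promoters often marks enhancers, which differ between brain regions more than promoters do.

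Peaks of the 4 samples were merged into 264255 regions, of which 75752 held a peak in every sample. Values are given as CPM, the counts divided by the sample's total and scaled to a common size, and a group difference as log2 of CTX over MGE with its standard error (SE). The SE was derived from the log2 value and the F statistic of the edgeR test, so it is no measure of spread separate from the p-value. The 2 groups were called apart only when both CTX values lay on one side of both MGE values. A gene's value was the sum over the sample's peaks that overlapped its body or the 2000 bp upstream, and 17129 genes could be tested. The samples held 3465 to 6845 nuclei and 77387940 to 138873845 counts in peaks. The number of peaks ran from 105456 in MGE replicate 1 to 181339 in CTX replicate 1, and the share of counts in peaks at promoters from 39.0% in CTX replicate 1 to 55.1% in MGE replicate 1. Each pair of samples shared 22 to 41 cell barcodes, under 1% of either sample.

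Stretches of 300 bp from 6 regions show what the sequences behind the comparison look like, each centred on the narrowest peak that any compared sample had there. They were chosen after their values had been seen, 3 for higher values in CTX and 3 for higher values in MGE. Coordinates are GRCm38 and the plus strand is written 5′ to 3′. Capitals mark matches, on either strand, to any of 12 short words searched, each a core of a transcription factor family's binding sequence. A match is a description of the letters and not a bound site. The first sequence lies in an intergenic region upstream of Emx1, where the 2 CTX samples had 45.9 and 99.6 CPM and the MGE samples 5.87 and 5.11 CPM. The second lies downstream of Neurog2, and the third lies far from any coding gene on chromosome 13, with Id4 the nearest.
Emx1 distal, chr6:85165585-85165884: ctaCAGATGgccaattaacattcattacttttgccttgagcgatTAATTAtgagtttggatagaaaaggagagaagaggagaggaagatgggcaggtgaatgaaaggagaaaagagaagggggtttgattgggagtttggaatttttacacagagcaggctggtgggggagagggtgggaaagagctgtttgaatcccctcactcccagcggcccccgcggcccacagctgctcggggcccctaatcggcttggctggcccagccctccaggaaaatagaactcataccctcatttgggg
Neurog2 distal, chr3:127646256-127646555: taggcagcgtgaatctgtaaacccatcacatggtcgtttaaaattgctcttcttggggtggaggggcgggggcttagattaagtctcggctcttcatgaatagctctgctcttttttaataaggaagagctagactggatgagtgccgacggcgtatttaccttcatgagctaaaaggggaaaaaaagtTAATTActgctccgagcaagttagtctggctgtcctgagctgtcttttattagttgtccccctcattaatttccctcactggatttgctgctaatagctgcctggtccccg
Id4 intergenic, chr13:47870244-47870543: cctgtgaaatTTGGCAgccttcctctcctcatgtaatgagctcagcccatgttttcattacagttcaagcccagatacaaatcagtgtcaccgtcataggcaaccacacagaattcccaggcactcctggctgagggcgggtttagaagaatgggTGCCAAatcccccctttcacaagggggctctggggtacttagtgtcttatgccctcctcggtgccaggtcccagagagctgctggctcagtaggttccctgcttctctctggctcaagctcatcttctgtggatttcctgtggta
Capitals in the Emx1 stretch mark a proneural E-box, CAGATG, and a homeodomain palindrome, TAATTA. The Neurog2 stretch held a homeodomain palindrome. The Id4 stretch held 2 copies of TTGGCA, the core of the nuclear factor I (NFI) family.

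The next 3 stretches come from regions with higher values in both MGE samples. The first lies downstream of Nkx2-1. The second lies in an intron of Elp4 beyond the end of Pax6, and was the only tested region at the Pax6 locus where both CTX samples lay below both MGE samples. The third covers part of the promoter region of Gast, which encodes the precursor of the hormone gastrin.
Nkx2-1 distal, chr12:56482096-56482395: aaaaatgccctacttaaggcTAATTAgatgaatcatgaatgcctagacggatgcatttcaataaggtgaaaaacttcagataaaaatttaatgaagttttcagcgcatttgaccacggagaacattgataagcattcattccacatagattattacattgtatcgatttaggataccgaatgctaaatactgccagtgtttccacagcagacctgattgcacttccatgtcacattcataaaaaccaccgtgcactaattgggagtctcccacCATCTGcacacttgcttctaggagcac
Pax6 distal, chr2:105726764-105727063: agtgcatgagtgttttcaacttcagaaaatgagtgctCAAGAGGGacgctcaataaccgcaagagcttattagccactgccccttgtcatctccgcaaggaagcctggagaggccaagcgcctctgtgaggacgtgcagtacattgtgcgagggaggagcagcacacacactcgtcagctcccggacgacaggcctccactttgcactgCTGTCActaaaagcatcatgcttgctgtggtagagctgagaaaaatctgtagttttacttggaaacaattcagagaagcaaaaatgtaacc
Gast promoter, chr11:100332867-100333166: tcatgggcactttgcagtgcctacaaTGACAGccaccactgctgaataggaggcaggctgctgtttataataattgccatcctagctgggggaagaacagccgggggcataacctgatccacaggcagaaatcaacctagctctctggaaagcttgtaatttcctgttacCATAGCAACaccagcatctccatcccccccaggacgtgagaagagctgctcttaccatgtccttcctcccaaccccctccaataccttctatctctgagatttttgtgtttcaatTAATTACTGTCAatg
The Nkx2-1 stretch held a homeodomain palindrome and a proneural E-box. The Pax6 stretch held a match to the CTCF core, CCCTCTNG, and 1 to the TALE core, TGACAG, the sequence of Meis, Pbx and related factors. The Gast stretch held 2 TALE cores, an RFX core, GTTGCNATG, and a homeodomain palindrome that runs into the second TALE core.

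The labels were checked first. Nkx2-1, the defining gene of the MGE (chr12:56531958-56536908), had 18.3 and 23.9 CPM in the CTX samples and 523 and 347 CPM in the MGE samples. Both MGE samples stood far above both CTX samples, and the difference passed the test (log2 −4.36, SE 0.33, edgeR adjusted p = 0.0398). Emx1, a homeodomain gene of the dorsal telencephalon (chr6:85187438-85204462), had 129 and 172 CPM in CTX and 56.4 and 34.0 CPM in MGE. The groups lay apart in the direction of the labels, but the difference did not pass the test (log2 1.74, SE 0.32, edgeR adjusted p = 0.142). Per covered kilobase, the Emx1 values were 8.36 and 6.60 CPM in CTX and 7.11 and 4.62 CPM in MGE, and the groups overlapped. Nkx2-1 lay apart on that scale too, at 3.48 and 3.81 CPM per kilobase in CTX and 21.6 and 16.1 in MGE.

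In the gene test, 14 genes passed an edgeR adjusted p of 0.05 with the groups apart. Of these, 4 were higher in CTX (0.0234% of genes tested) and 10 were lower (0.0584%). The 10 included regulators of ventral fate: Nkx2-1, Gsx2, Dlx1, Dlx2 and Dlx5. An unadjusted p under 0.05 with the groups apart was found for 1527 genes higher in CTX (8.91%) and 660 lower (3.85%). No gene was called when either MGE sample was left out or when replicate number entered as a block, whereas DESeq2 called 2279 genes.

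Gsx2, which specifies ventral progenitors, had 8.07 and 11.04 CPM in CTX and 111.8 and 100.9 CPM in MGE, so it fell by 3.48 on the log2 scale (SE 0.23, edgeR adjusted p = 0.0398). Dlx1 and Dlx2 lie next to each other on chromosome 2 and shared 1 wide peak in each MGE sample, whereas the CTX samples had separate narrower peaks there, with 6.74 and 9.70 kb covered for Dlx1 and 13.99 and 9.88 kb for Dlx2 against 25.95 and 25.55 kb in MGE. Over the whole merged region the log2 value was −2.08. Dlx1 had 53.4 and 50.8 CPM in CTX and 537.6 and 452.4 CPM in MGE, a fall of 3.25 on the log2 scale (SE 0.24). Dlx2 had 64.7 and 62.0 CPM in CTX and, since the same peak was counted, 537.6 and 452.4 CPM in MGE. Dlx5, which shared peaks with its neighbour Dlx6, had 66.7 and 67.7 CPM in CTX and 439.8 and 406.0 CPM in MGE (log2 −2.65, SE 0.22, edgeR adjusted p = 0.0409). The Dlx genes encode homeodomain factors needed for GABAergic neurons, and for Dlx1, Dlx2 and Dlx5 the CTX replicates differed little from each other.

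The other genes that were lower in CTX were not on any list. Ccdc188 had 1.73 and 2.72 CPM in CTX and 107.8 and 63.8 CPM in MGE, the largest fold of the 14 (log2 −5.27, SE 0.41). Gast had 3.13 and 3.13 CPM in CTX and 41.6 and 45.6 CPM in MGE (log2 −3.80). Hsd17b3, an enzyme of testosterone synthesis, had 7.31 and 6.87 CPM in CTX and 52.4 and 63.9 CPM in MGE (log2 −3.04, SE 0.20). Both MGE samples stood above both CTX samples for each of these, also per covered kilobase. Gigyf1 and Morn5 passed as well. In a single sample, up to 100% of the counts of Gigyf1 and 98.5% of those of Morn5 lay in peaks shared with other genes. Morn5 adjoins Lhx6, and its groups overlapped per covered kilobase.

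The 4 genes higher in CTX were on none of the gene lists. Myh15, a myosin heavy chain gene, had 69.4 and 54.6 CPM in CTX and 8.04 and 7.28 CPM in MGE (log2 3.02, SE 0.22). Cdh17, which encodes a cadherin, had 56.3 and 45.8 CPM in CTX and 6.51 and 7.73 CPM in MGE (log2 2.84). Nmu, which encodes the neuropeptide neuromedin U, had 49.4 and 46.4 CPM in CTX and 10.0 and 8.73 CPM in MGE (log2 2.35, SE 0.19, edgeR adjusted p = 0.0409). Both CTX samples stood above both MGE samples for each, also per covered kilobase, but Nmu had a log2 value of −0.27 when only peaks near start sites were summed. Col4a3, a basement membrane collagen gene, rose as well (log2 2.93), with up to 54.5% of the counts of a single sample in shared peaks. Among genes higher in CTX that were not called but met the limits for naming, Sumf1 had the smallest p. It had 56.8 and 59.1 CPM in CTX and 13.3 and 15.8 CPM in MGE (log2 2.00, edgeR adjusted p = 0.053), and overlapped per covered kilobase.

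Gene lists were then read against the background of all genes tested, in which 24.1% had both CTX samples above both MGE samples and 22.7% had both below. Of the 16 genes of pallial patterning, 11 lay above, 1 lay below and 4 overlapped, with a median log2 of 0.87 against 0.01 over all genes. None passed the adjusted test, and 10 had an unadjusted edgeR p under 0.05, all higher in CTX. Emx2, a patterning gene of the caudal and medial cortex, had 206 and 355 CPM in CTX and 75.8 and 79.4 CPM in MGE (log2 1.85, edgeR adjusted p = 0.129). Dmrt3, another gene of the medial pallium, had 130 and 256 CPM against 58.5 and 53.6 CPM. Gli3, the zinc finger repressor that restrains ventral fate, had 535 and 716 CPM against 247 and 324 CPM. In each of these CTX replicate 2 was the highest sample, and per covered kilobase Gli3 turned direction, with both CTX samples below both MGE samples.

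Pax6, which encodes a homeodomain factor of dorsal radial glia, had 278 and 303 CPM in CTX and 161 and 157 CPM in MGE (log2 0.87, SE 0.20). Otx2 was the 1 gene of the list below in CTX, with 46.6 and 92.6 CPM against 122 and 105 CPM. Id4, Nr2e1, Nr2f1 and Sp5 overlapped between the groups.

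Of the 15 genes of glutamatergic differentiation, 10 lay above in CTX, 1 lay below and 4 overlapped, and 9 had an unadjusted edgeR p under 0.05, all higher in CTX. The median log2 was 1.30, 0.59 with covered length as an offset and 0.69 without CTX replicate 1. Neurod6, a gene of postmitotic cortical neurons, had 135 and 42.8 CPM in CTX and 1.06 and 2.56 CPM in MGE, the largest fold of the list (log2 5.64, SE 0.77, edgeR adjusted p = 0.110). Neurog2, the proneural factor of cortical progenitors, had 117 and 153 CPM in CTX and 55.0 and 45.4 CPM in MGE (log2 1.42, SE 0.23). Eomes, which marks intermediate progenitors of the SVZ, had 115 and 69.9 CPM in CTX and 32.0 and 28.7 CPM in MGE (log2 1.61), but with covered length as an offset the log2 value was 0.28 and the groups overlapped. Neurod6 and Eomes were higher in CTX replicate 1 than in CTX replicate 2, whereas Neurog2 was higher in CTX replicate 2.

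Neurod2, like Neurod6 a gene of differentiating neurons, differed widely between the CTX samples. It had 169 CPM in replicate 1 and 16.8 CPM in replicate 2, with 20.8 and 10.7 CPM in MGE, and its groups overlapped. Slc17a6 and Slc17a7, the vesicular glutamate transporter genes, both lay above in CTX, at 139 and 79.1 CPM for Slc17a6 against 44.2 and 44.4 CPM in MGE. Rnd2, a target of Neurog2 in migrating neurons, was the 1 gene below, with 52.4 and 52.5 CPM in CTX and 75.1 and 61.5 CPM in MGE. Neurog1 and Tbr1 overlapped.

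Of the 17 genes of cortical projection neuron identity, 10 lay above and 2 below (median log2 0.58). The median was −0.02 with covered length as an offset, and with peaks near start sites only it was 0.08, with 7 above and 5 below. Fezf2, the selector of deep-layer subcerebral neurons, had 268 and 381 CPM in CTX and 114 and 109 CPM in MGE (log2 1.54, edgeR adjusted p = 0.129). It lay apart per covered kilobase too, and with covered length as an offset it passed (edgeR adjusted p = 0.0008). Zfpm2, a cofactor gene of corticothalamic neurons, had 248 and 152 CPM against 61.3 and 93.6 CPM, but its log2 value was −0.02 with the offset. Lhx5, which is expressed in Cajal-Retzius cells and their sources, lay below in CTX, with 29.8 and 36.6 CPM against 98.4 and 69.7 CPM, and Bcl11b and Cux1 overlapped.

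The lists of the ventral telencephalon ran the other way. Of the 21 genes of MGE patterning and lineage, 13 lay below in CTX and 2 above, with a median log2 of −0.69, and Nkx2-1 alone passed the test. Lhx6, the Nkx2-1 target that directs interneuron migration and fate, had 38.9 and 51.2 CPM in CTX and 264 and 231 CPM in MGE (log2 −2.46, SE 0.24, edgeR adjusted p = 0.0535). Olig2, a basic helix-loop-helix gene of ventral progenitors, had 49.1 and 42.1 CPM in CTX and 222 and 156 CPM in MGE (log2 −2.05, adjusted p = 0.091 in edgeR). Lhx8, which is needed for cholinergic neurons, had 39.4 and 56.4 CPM against 118 and 132 CPM. All 3 lay apart per covered kilobase, whereas Sst, the gene of the later interneuron peptide somatostatin, was at 1.87 CPM or less in every sample. Sox6 and Etv1, genes of MGE-derived interneurons that are also used in other lineages, lay above in CTX, Sox6 at 545 and 525 CPM against 453 and 474 CPM.

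Of the 24 pan-eminence and GABAergic genes, 16 lay below in CTX and 3 above, with a median log2 of −1.03, and Dlx1, Dlx2, Dlx5 and Gsx2 passed. Gad2, a GABA synthesis enzyme gene, had 36.9 and 42.8 CPM in CTX and 143 and 144 CPM in MGE (log2 −1.85, edgeR adjusted p = 0.0569). Slc32a1, the vesicular GABA transporter gene, had 28.6 and 18.7 CPM against 140 and 115 CPM. Sp9 and Vax1, transcription factor genes of the ventral telencephalon, had log2 values of −1.69 and −2.04. None of these 4 genes passed the adjusted test, although their CTX and MGE values did not overlap. Dlx6 had 41.8 and 128 CPM in CTX, so the E14.5 sample was the higher one, against 440 and 406 CPM in MGE. Meis2, Foxp1 and Rarb, which mark striatal projection neurons among other cells, were the 3 genes above in CTX.

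**Figure D1:**
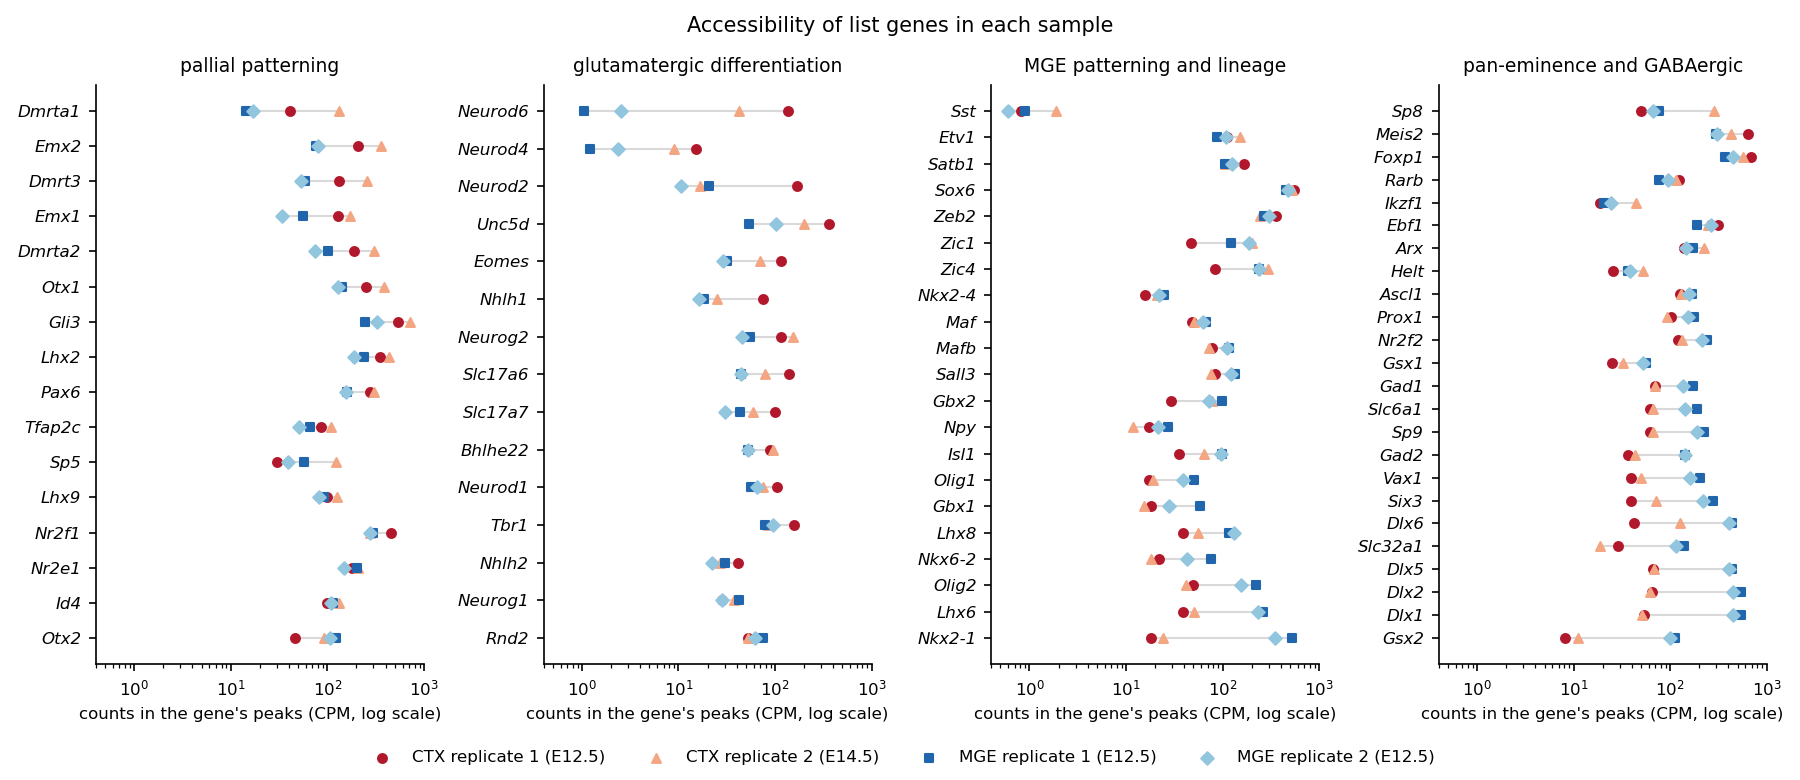
Accessibility of the genes of 4 lists in each sample, as CPM in the gene's peaks on a log axis, with 1 symbol per sample and a line from the lowest to the highest value. Most pallial and glutamatergic genes have both CTX symbols to the right of both MGE symbols (11 of 16 and 10 of 15), and most genes of the ventral lists have them to the left (13 of 21 and 16 of 24).

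The Sonic hedgehog pathway held genes of both directions. Shh, the ligand gene, had 29.6 and 24.6 CPM in CTX and 103.4 and 103.7 CPM in MGE (log2 −1.94, SE 0.18, edgeR adjusted p = 0.0535). Ptch1, a receptor gene that is also a target of the pathway, lay below in CTX, at 247 and 298 CPM against 436 and 435 CPM. The coreceptor genes Boc and Cdon lay above in CTX, Boc at 353 and 312 CPM against 136 and 136 CPM. Gas1, also a coreceptor gene, had 116 and 232 CPM against 84.5 and 98.1 CPM. The targets Gli1 and Hhip overlapped, and per covered kilobase Boc and Cdon turned direction. Of the 15 genes of the pathway, 6 lay above, 3 lay below and 6 overlapped, and none passed the test.

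Of the 23 genes of the Wnt list, which holds genes of the cortical hem, 10 lay above in CTX and 3 below. Lef1, a transcription factor gene of the pathway, had 202 and 330 CPM in CTX and 105 and 108 CPM in MGE. Sfrp1, a secreted inhibitor gene, had 175 and 187 CPM against 98.6 and 84.7 CPM. With the offset the log2 values of Lef1 and Sfrp1 were 0.03 and 0.12. Wnt8b, a ligand gene of the hem and medial pallium, had 39.1 CPM in CTX replicate 1 and 246 CPM in CTX replicate 2, with 58.5 and 70.1 CPM in MGE, so its groups overlapped. Of the 14 genes of the Fgf list, 2 lay above and 3 below. Of the 16 genes of migration and guidance, 7 lay above and 1 below. That 1 was Ackr3, a chemokine receptor gene of migrating interneurons, with 47.8 and 44.3 CPM in CTX and 126 and 103 CPM in MGE (log2 −1.31, edgeR adjusted p = 0.118). Sema3a, a repellent guidance gene, had 258 and 253 CPM in CTX and 54.5 and 103 CPM in MGE. None of these 3 lists had a gene past the adjusted test.

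Of the 18 pan-telencephalic progenitor genes, 3 lay above in CTX and 8 below. Sox1 had 117 and 153 CPM in CTX and 471 and 355 CPM in MGE, and Nes, the radial glial intermediate filament gene, had 70.1 and 112 CPM against 268 and 195 CPM. With the offset the groups of Sox1 (log2 −0.34) and Nes (log2 −0.17) overlapped. Of the 17 genes of temporal progression, 10 lay above and 2 below, among them the nuclear factor I genes. Nfib had 1525 and 1088 CPM in CTX and 447 and 490 CPM in MGE (log2 1.48), but with covered length as an offset the log2 value was −0.064. Lin28a, a gene of early progenitors, had 4.11 CPM in CTX replicate 1 and 45.7 CPM in CTX replicate 2, with 46.8 and 38.5 CPM in MGE. Of the 16 ubiquitous genes, 1 lay above and 5 below, with a median log2 of −0.20.

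Markers of other cell types were summed as a check. The summed level of the 12 endothelial genes was 379 and 297 CPM in CTX and 311 and 282 CPM in MGE. The 13 mural or mesenchymal genes summed to 386 and 467 CPM in CTX and 435 and 381 CPM in MGE, and the 8 microglial genes tested of 10 to 274 and 212 CPM in CTX and 185 and 177 CPM in MGE. Of the endothelial genes 3 lay above in CTX (25.0%) and 1 below (8.33%), beside 24.1% and 22.7% of all genes tested. Per covered kilobase 1 lay above and 2 below, and with covered length as an offset 1 was called lower in CTX. Emcn, an endothelial sialomucin gene, had 28.2 and 13.4 CPM against 2.82 and 7.79 CPM. Cdh5, an endothelial cadherin gene, had a fitted log2 of 2.22 (edgeR adjusted p = 0.176) and of 2.73 at E12.5 alone. Of the mural or mesenchymal genes 2 lay above, with Lum, a fibroblast gene, at 9.49 and 8.16 CPM in CTX and 0 and 0.22 CPM in MGE, and 3 lay below, Foxc2 and Twist1 among them. Of the microglial genes, Ptprc, a leukocyte gene with a log2 of 1.78 at E12.5 alone, had 35.8 and 27.9 CPM against 8.87 and 12.2 CPM. C1qb, a microglial complement gene, was listed at 0 in both CTX samples and had 2.59 and 1.55 CPM in MGE. The microglial sums of both CTX samples lay above both MGE sums, with 2 genes above and 2 below, and the part of these cells in the results was not tested. Of 11 erythroid genes 4 could be tested and summed to 105 to 141 CPM, and none of the globin genes, Gata1 or Alas2 was among them.

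Against these lists, the sums over peaks depend on how much of a gene was called as peak. Per covered kilobase, 1850 genes lay above in CTX and 5230 below, where the plain CPM gave 4127 and 3892. On that scale 8 pallial genes lay above and 3 below, 9 and 0 glutamatergic genes, 0 and 10 MGE genes, and 1 and 14 pan-eminence genes. The direction of these 4 lists was thus the same on both scales, while the Sonic hedgehog list turned to 1 above and 8 below. Against the 1850 and 5230 of all genes on that scale, the Wnt list had 4 above and 4 below, migration and guidance 3 and 3, temporal progression 5 and 3, and cortical projection neuron identity 4 and 2.

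In the 3 samples of E12.5, CTX replicate 1 was compared with the MGE pair, on the assumption that the lone CTX sample varies like the MGE samples. In this comparison 558 genes were higher in CTX (3.19%) and 105 lower (0.601%). From the lists, 7 of 15 glutamatergic genes and 3 of 16 pallial genes were called higher and none lower, and 7 of 21 MGE genes and 10 of 24 pan-eminence genes were called lower, with 1 pan-eminence gene, Meis2, called higher (log2 1.11). Neurod6 (log2 6.26), Neurod2 (log2 3.43), Eomes, Slc17a6, Slc17a7, Emx2 and Fezf2 were among those called higher. Lhx6, Lhx8, Shh, Gad2, Slc32a1, Olig2, Vax1 and Sp9 were called lower, along with the ventral regulators named above. Without CTX replicate 1 instead, the median log2 was 0.69 for glutamatergic and 1.165 for pallial genes, against 1.46 and 0.77 in the E12.5 fit. It was −0.58 for MGE and −0.99 for pan-eminence genes, against −1.23 and −1.13 in the E12.5 fit. Over all genes the medians of these fits were 0.0001 and −0.002, in that order.

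**Figure D2:**
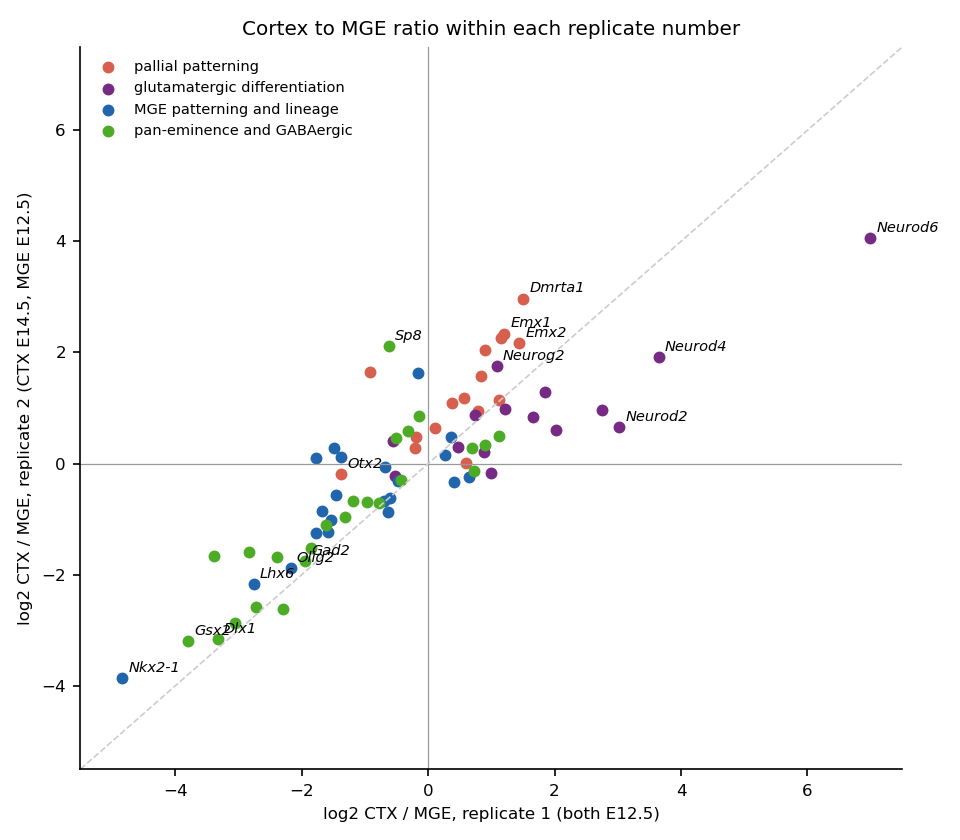
Log2 of CTX over MGE for the genes of 4 lists, replicate 1 on the horizontal axis (both samples E12.5) and replicate 2 on the vertical axis (CTX E14.5, MGE E12.5), with 1 point per gene and a dashed line of equality. Nkx2-1, Gsx2 and Dlx1 lie at the lower left, Neurod2, Neurod4 and Neurod6 lie to the right of it, and Sp8 lies above 0 in replicate 2 only.

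The ratios of CTX to MGE taken within replicate 1 and within replicate 2 share no sample. Over the 17129 genes the 2 ratios had a Pearson r of 0.452 and the same sign for 64.2%, given as a description, since genes are not independent and depth and peak width are shared within a sample. The spread of the log2 ratio between the 2 CTX samples was 0.85 (SD over genes) and that between the 2 MGE samples 0.71. Sp8, a zinc finger gene of several telencephalic domains, had 50.4 CPM in CTX replicate 1 and 286 CPM in CTX replicate 2, against 77.3 and 65.8 CPM in MGE. For Sp8, Wnt8b and Lin28a the later CTX sample had the higher value of the pair, and for Neurod2 the earlier one had.

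Regions were tested next. Of 75748 regions tested, both CTX samples lay above both MGE samples in 19744 (26.1%) and below in 18686 (24.7%). None passed the adjusted edgeR test, in which the smallest adjusted p was 0.0966 and 13335 regions had an unadjusted p under 0.05. DESeq2 called 9658 of the same set. With the E12.5 samples alone, edgeR called 8049 regions higher in CTX replicate 1 (10.6%) and 4509 lower (5.95%), again with the lone sample assumed to vary like the MGE pair. The 2 CTX samples differed more from each other (SD of the log2 ratio 1.25 over regions) than the MGE samples did (0.73).

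Of 15620 regions within 1000 bp of a start site, both CTX samples lay above in 12.8% and below in 33.6%. Of 23521 intronic regions, 30.6% lay above and 22.1% below, and of 28800 intergenic regions 29.5% and 22.4%. Fitted differences of 4-fold or more with the groups apart were found in 5154 regions above and 2275 below, of which 158 and 79 were at promoters. The share of promoters was 5.11% among the 8158 regions above with an unadjusted edgeR p under 0.05 and 13.5% among the 5174 below, against 20.6% of all regions tested. The CTX samples also held less of their counts in promoter peaks (39.0% and 46.7%) than the MGE samples (55.1% and 51.6%), and when promoters and other regions were scaled separately, 21.7% of promoters lay above and 21.4% below, 28.2% and 24.5% of intronic and 26.8% and 24.9% of intergenic regions, with 0 regions called.

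Regions are named here by smallest p among those apart with 200 bp or more covered in every sample. This choice favours similar values within each group. The region of the Id4 stretch printed above, chr13:47868720-47871479, lies 389749 bp from the start of Id4 and had 50.9 and 67.4 CPM in CTX and 1.70 and 1.65 CPM in MGE (log2 5.14, SE 0.28). An intergenic region at chr16:7446974-7448999, 94004 bp from a start site of Rbfox1, a neuronal splicing factor gene, had 55.2 and 67.7 CPM against 2.77 and 2.96 CPM. A region in an intron of Nfia, chr4:97923203-97927911, had 61.5 and 60.0 CPM against 4.39 and 3.48 CPM. The other 2 on the CTX side lay nearest to Fzd8, a Wnt receptor gene (log2 5.40), and in an exon of Dst, a cytoskeletal linker gene (log2 5.69). Both CTX values exceeded both MGE values by at least 10-fold in each of these 5.

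On the MGE side, the region over the Dlx1 and Dlx2 promoters, chr2:71522721-71548699, had 111 and 120 CPM in CTX and 532 and 443 CPM in MGE (log2 −2.08, SE 0.15). The Gast promoter region, chr11:100332125-100334584, had 1.57 and 1.27 CPM against 33.8 and 38.4 CPM (log2 −4.67). A region in an intron of Hsd17b3 had a log2 value of −3.05. A region 58492 bp from a start site of Med13 had a log2 value of −5.37. All 10 regions had an edgeR adjusted p of 0.0966. With covered length as an offset the edgeR adjusted p was 0.0275 to 0.0454, and with the E12.5 samples alone all 10 kept their direction. The 10 were picked by p from these same samples, so neither fit is a separate check of them.

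Regions with a peak in one group only were described without a test, since a sample without a peak has no count there. There were 20239 with a peak in both CTX samples and in neither MGE sample, and 8905 the other way. They were short (median 690 and 610 bp, against 1385 bp for regions shared by all 4 samples), and 1.87% and 1.97% of them lay at promoters, against 20.6%. They held 5.77% and 3.55% of the counts of the CTX samples and 1.28% and 1.92% of those of the MGE samples. CTX replicate 1 had the most peaks and MGE replicate 1 the fewest, and the part of this in both counts was not tested. When a peak needed at least 1 CPM, the counts were 12338 and 9266. With a sample left out, which also drops the need for a peak in both replicates, the CTX set ran from 20940 (without MGE replicate 1) to 72006 (without CTX replicate 2) and the MGE set from 11076 (without MGE replicate 2) to 37548 (without MGE replicate 1).

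For these one-group regions, CPM values are relative to all counts in peaks. Among those of CTX, 1 of the 3 with the highest mean lay in an intron of Dnah9, a dynein gene (53.1 and 25.6 CPM). Another lay 449755 bp from a start site of Nr4a2, a nuclear receptor gene of cortical subplate and dopaminergic neurons (25.6 and 49.5 CPM). The last lay 73832 bp from a start site of Ppp1r3b (33.8 and 40.8 CPM). Among those of MGE, 1 of the 3 with the highest mean overlapped an exon of Zfand4 (17.9 and 33.7 CPM). Another lay in an intron of Efna5, an ephrin gene (19.4 and 26.5 CPM), and the last 302323 bp from a start site of Rnf32 (19.9 and 25.9 CPM). No CTX-only region was among the merged regions within 50000 bp of Nkx2-1 (13 merged regions), Lhx6 (15), Dlx1 (18) or Gad2 (28). Lhx8 (27) and Shh (10) had 1 each. No MGE-only region was among those near Emx1 (20), Emx2 (15), Neurod6 (10), Neurog2 (11), Fezf2 (20), Pax6 (19) or Gli3 (101). Of all 264255 merged regions, 20239 were CTX-only and 8905 MGE-only. With so few merged regions at most of these genes, a count of 0 says little.

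Regions around single genes were described by their counts, beside shares of 26.1% above and 24.7% below in CTX over all regions tested. Counts of one-group regions stand beside 20239 CTX-only and 8905 MGE-only regions of all 264255 merged. Within 50000 bp of Nkx2-1, all 3 regions tested lay below in CTX and 5 further regions had peaks in MGE only. The region over the Nkx2-1 start, chr12:56517497-56541787, had 31.8 and 56.7 CPM in CTX and 518 and 351 CPM in MGE (log2 −3.30). The downstream region printed above in part, chr12:56479926-56484802, had 1.44 and 0.10 CPM in CTX and 64.6 and 43.5 CPM in MGE (log2 −6.09, SE 1.203). Both regions had a peak in every sample. The distal one was picked for the lowest log2 value at the locus, so its larger ratio was part of the choice. Its peak covered only 130 bp in CTX replicate 2. With covered length as an offset the log2 values were −2.98 at the distal region and −2.53 at the start region. At Lhx6 all 4 regions tested lay below in CTX, and at Dlx1 5 of 8 lay below and none above. Per covered kilobase, 4 of the Dlx1 regions lay below and 1 above.

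At Emx1, 12 of 15 regions tested lay above in CTX and none below, with 2 further regions in CTX only. Per covered kilobase 8 lay above and 2 below. The start region had a log2 value of 1.40 (SE 0.29), and the upstream region of the printed stretch, 20050 bp from the nearest start site, 3.73 (SE 0.44). At Neurog2 all 6 regions lay above in CTX. The region of the printed Neurog2 stretch, chr3:127645639-127647451, had 31.3 and 77.8 CPM in CTX and 1.88 and 2.74 CPM in MGE (log2 4.57, SE 0.56), whereas the start region had a log2 of 1.37. The regions of both printed stretches were picked away from promoters for a high log2 value. A larger ratio than at the start was thus part of the choice. Other distal regions at these genes had smaller ratios than the start region, such as 0.06 at Emx1 and 1.25 at Neurog2.

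At Pax6, 5 of 6 regions lay above in CTX and 5 further regions were found in CTX only. The exception, chr2:105726454-105727356, had 0.82 and 0.57 CPM in CTX and 8.46 and 15.4 CPM in MGE (log2 −4.10, SE 0.57). The locus thus held regions of both directions. At Gli3, 10 of 17 regions lay above, 3 below, and 20 further regions were in CTX only; per covered kilobase 5 lay above and 5 below. At Sox6, 14 of 40 regions lay above and 11 below, beside 26.1% and 24.7% of all regions tested. Of its 121 merged regions, 9 were CTX-only and 5 MGE-only, beside 20239 and 8905 of all 264255. Log2 values at Sox6 ran from −3.48 to 3.78.

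**Figure D3:**
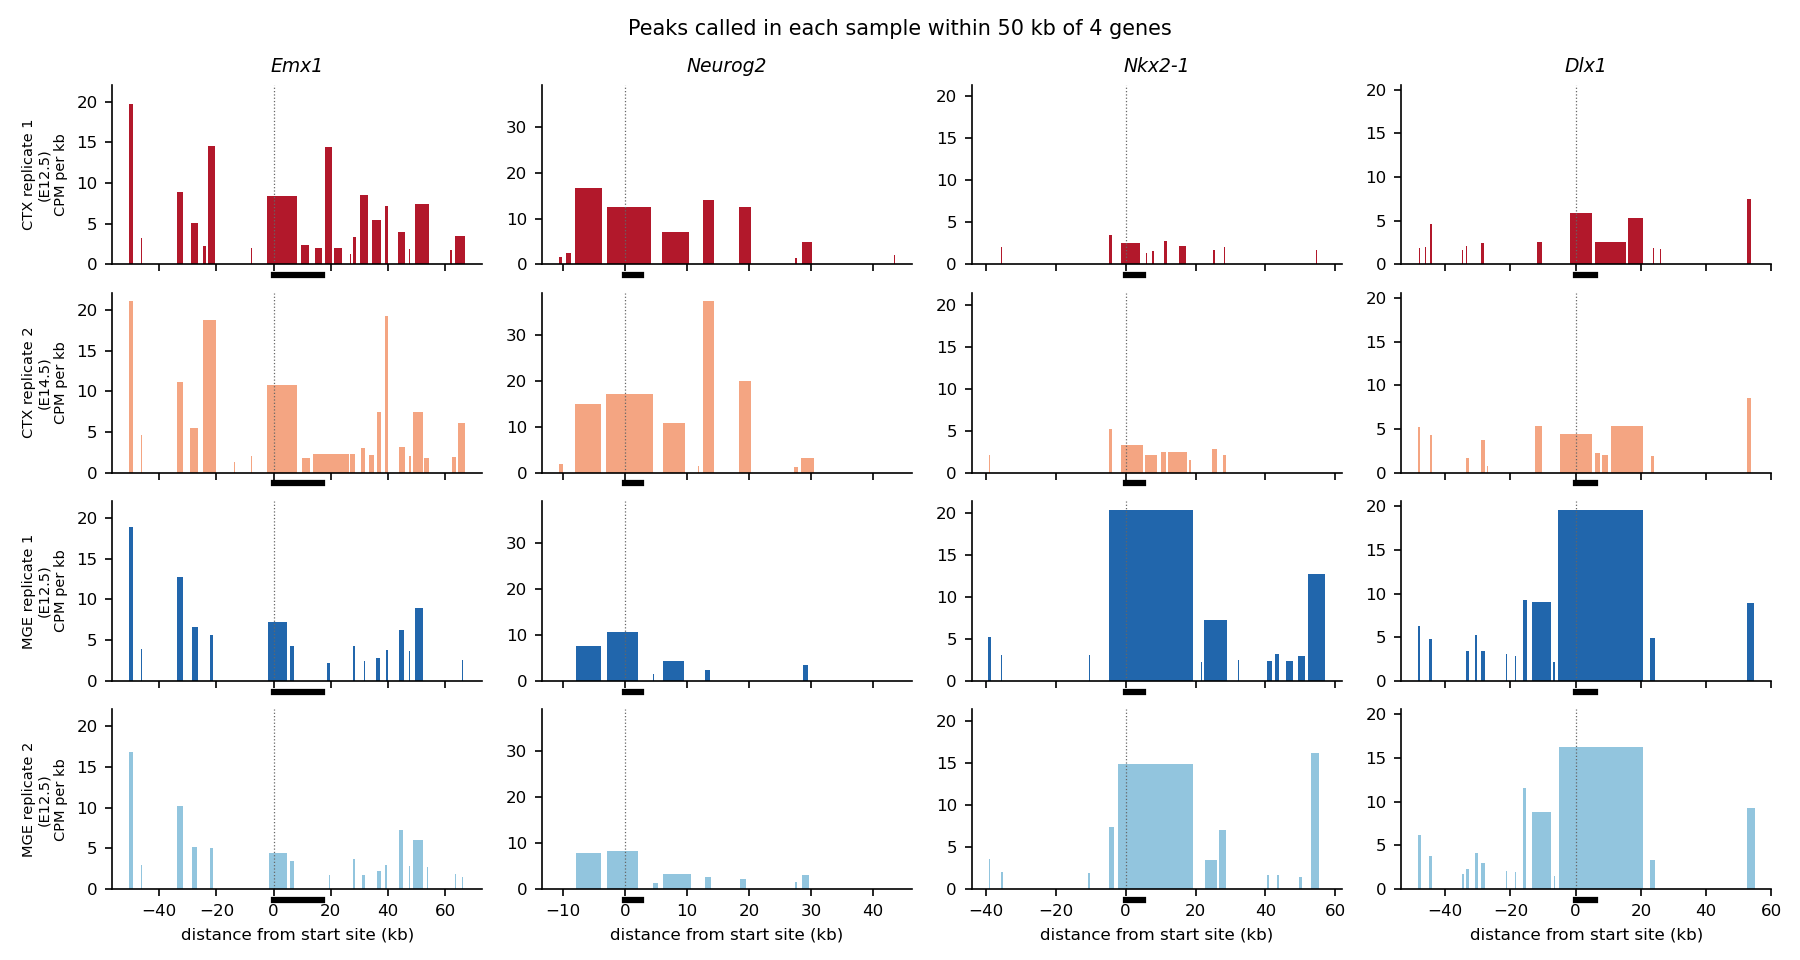
Peaks called in each sample within 50 kb of Emx1, Neurog2, Nkx2-1 and Dlx1, as CPM (relative to all counts in peaks) per kilobase of peak against distance from the gene's start site in the direction of transcription. Each box is 1 peak, samples are rows, and the black bar is the gene: CTX has tall peaks beside Emx1 and Neurog2, and MGE has wide tall peaks over Nkx2-1 and Dlx1.

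The short words were counted in 300 bp windows of regions more than 1000 bp from a start site. Each window was centred on the narrowest peak that any compared sample had in the region, which can belong to either group. No test was run on the words. The NFI core TTGGCA was found in 19.6% of the 60128 distal regions tested, in 28.0% of those above in CTX with an unadjusted edgeR p under 0.05 and in 15.9% of those below. Of CTX-only regions 34.4% held it and of MGE-only regions 12.7%. The homeodomain palindrome TAATTA was in 12.7% of all distal regions, in 20.9% of those above and 13.1% of those below, and in 20.7% and 14.3% of the CTX-only and MGE-only regions. CTX regions thus held both words more often than the distal regions tested, and MGE regions held TAATTA about as often as these. Here and below, all distal regions means those 60128, which had a peak in all 4 samples. CTX-only and MGE-only regions lie outside that set. Their median GC content was 46.7% and 47.0%, against 49.3% in the set.

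The NKX2 core CACTTNA had the opposite order. It was in 16.8% of all distal regions, 16.9% of those above in CTX, 21.8% of those below, 15.3% of CTX-only regions and 29.9% of MGE-only regions. The proneural E-box CAGATG was in 25.9% of all, 27.9% of those above and 25.7% of those below, and in 32.8% of CTX-only and 24.8% of MGE-only regions. With the E12.5 samples alone, the E-box was in 32.2% of regions called higher in CTX and 24.3% of those called lower. For TAATTA the E12.5 shares were 17.5% and 14.1%. These sets were chosen by an adjusted p and the others by an unadjusted one, so their shares are given side by side without a comparison. The median GC content of these sets was 46.7% to 49.7%.

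The other words are given in the order of all distal regions, those above in CTX and those below. The RFX core was in 2.06% of all distal regions, 1.91% of those above and 3.69% of those below, and in 1.52% of CTX-only and 2.21% of MGE-only regions. The SOX core ACAATGG was in 5.34%, 5.88% and 7.60%, and the octamer core TTTGCAT, which POU factors bind, in 7.44%, 7.56% and 9.07%. The CTCF core was in 8.33% of all and in 6.07% and 6.12% of those above and below. The TALE core was in 24.6%, 26.3% and 27.1%, and in 24.9% of CTX-only and 29.1% of MGE-only regions, and the octamer core was in 6.37% and 9.87% of these. The GLI core GACCACC was in 2.81%, 2.42% and 2.59%, the ETS core CCGGAAG in 1.96%, 1.27% and 1.97%, and the T-box core AGGTGTGA in 1.16%, 1.16% and 0.939%. Of CTX-only and MGE-only regions, 5.36% and 6.74% held the SOX core, 4.71% and 5.78% the CTCF core, 2.14% and 2.10% the GLI core, 1.29% and 1.23% the ETS core, and 1.92% and 1.04% the T-box core.

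**Figure D4:**
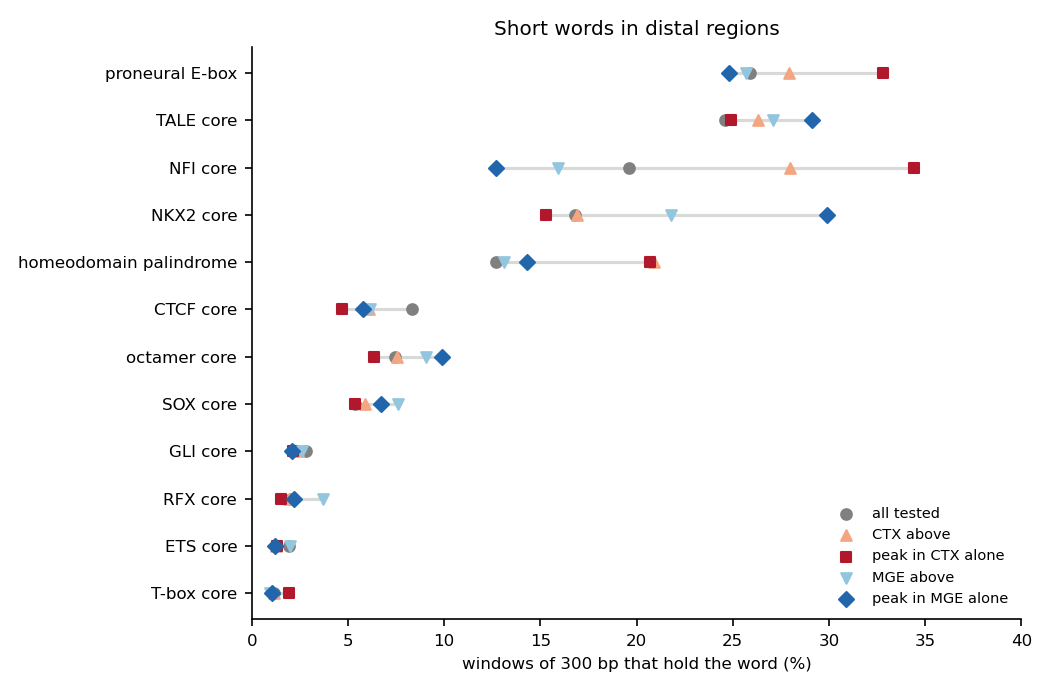
Percentage of distal 300 bp windows that hold each of 12 words, for all tested regions, regions above in CTX or in MGE with an unadjusted edgeR p under 0.05, and regions with peaks in 1 group alone. The NFI core runs from 12.7% in MGE-only to 34.4% in CTX-only regions, and the NKX2 core from 15.3% in CTX-only to 29.9% in MGE-only regions.

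The deposited motif matrices count cut sites in peaks that hold a motif, for 579 motifs. Both CTX samples lay above both MGE samples for 134 motifs (23.1%) and below for 128 (22.1%). None passed the adjusted edgeR test (smallest adjusted p 0.497), 57 had an unadjusted p under 0.05, DESeq2 called 16 and limma 0. Log2 values ran from −0.96 to 0.85, a much narrower range than that of genes.

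Among the motif lists, 8 of 14 proneural and E-box motifs lay above in CTX and 2 below (median log2 0.46), and 5 of 7 pallial homeodomain motifs lay above and none below (median 0.32). The Atoh1 motif, an E-box of the proneural type, had 715 and 416 CPM in CTX and 271 and 355 CPM in MGE (log2 0.85, SE 0.30, edgeR adjusted p = 0.497). The LHX2 motif had 745 and 824 CPM in CTX and 576 and 573 CPM in MGE. Both lay apart, and for the Atoh1 motif the ratio was larger within replicate 1 than within replicate 2.

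Motifs named for ventral factors also lay above in CTX, 13 of 21, with 2 below (median 0.25). The DLX6 motif had 9030 and 8267 CPM in CTX and 6208 and 6446 CPM in MGE, and the GSX2 motif 1264 and 1501 CPM in CTX and 856 and 1026 CPM in MGE. The genes Dlx6 and Gsx2 had their higher values in MGE, so gene and motif ran in opposite directions. Homeodomain factors bind similar words around TAATTA, and whether these motif counts share sites was not tested. The motifs of OLIG1, OLIG2 and OLIG3 had near-identical counts. Of 11 promoter-type and architectural motifs, such as those of SP1 and NRF1, 8 lay below in CTX and none above (median −0.23), beside the lower promoter share of the CTX samples given above.

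The motifs of POU6F1 (383 and 714 CPM against 294 and 319 CPM) and Barhl1 (log2 0.79), on none of the lists, and that of BHLHE23 (log2 0.75), of the E-box list, were among the 5 with the largest log2 value above in CTX. The motif of HOXC12 had the lowest value (16.4 and 15.4 CPM in CTX and 36.5 and 25.1 CPM in MGE, log2 −0.96), and that of E2F7, a repressor of the cell cycle, had 64.0 and 63.2 CPM against 99.3 and 92.5 CPM. The CTX samples differed little from each other for HOXC12 and E2F7. Of the smaller lists, 3 of 5 T-box, 3 of 9 SOX and 1 of 3 nuclear factor I motifs lay above and 2 of 5 POU motifs lay below. Of 8 nuclear receptor motifs, 1 lay above and 4 below.

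**Figure D5:**
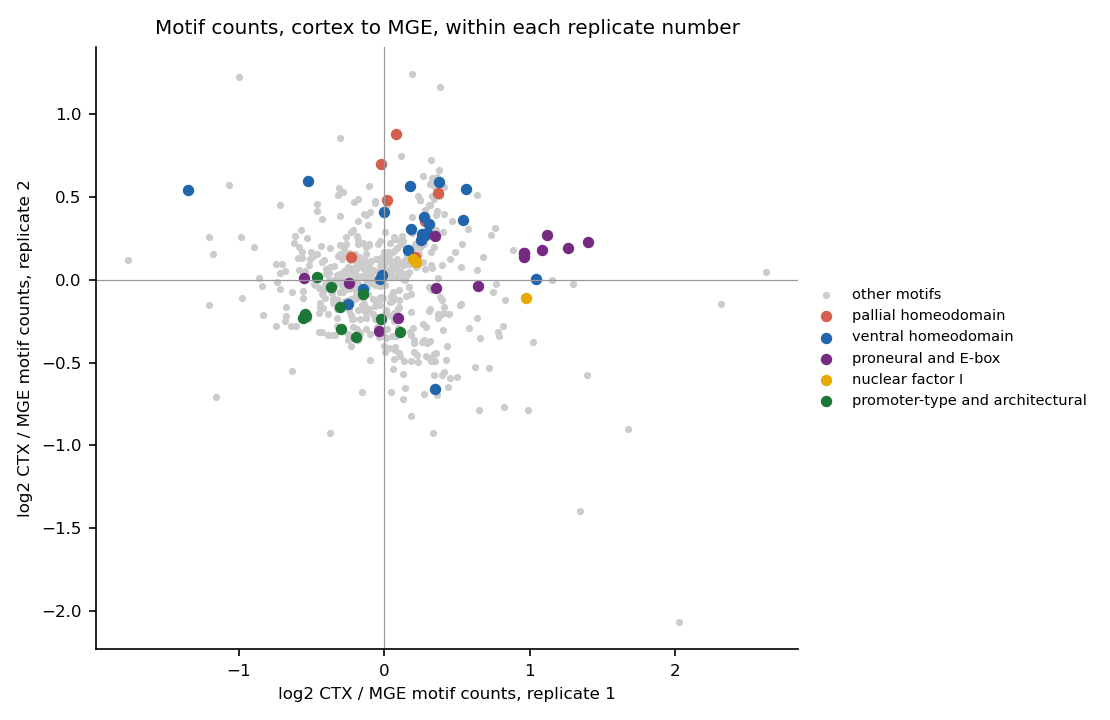
Log2 of CTX over MGE of the deposited motif counts, replicate 1 on the horizontal and replicate 2 on the vertical axis, with 1 point per motif and 5 lists in colour. E-box motifs reach their largest ratios in replicate 1, pallial and ventral homeodomain motifs lie mostly above 0 in replicate 2, and promoter-type motifs lie mostly below 0.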

How the data were processed

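Single-nucleus ATAC-seq libraries of 2 CTX and 2 MGE samples were analysed. Per the submitters' processing notes, Cell Ranger ATAC 1.2.0 and the build GRCm38 (mm10) were used. For each sample the authors deposited peaks, raw counts per peak and nucleus, and raw counts per motif and nucleus, none of them normalized. Peaks were called in each sample separately, and further steps are not given in the sources used here. All deposited nuclei were kept and no doublet caller was run.

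Counts were summed over nuclei per sample. Peaks were merged where they overlapped by 1 bp, and regions with a peak in all 4 samples were tested. Genes were the 21938 protein-coding genes of the GENCODE M21 annotation, with 54361 start sites, and a peak that overlapped several genes was counted for each. Since a wider peak collects more counts, CPM per covered kilobase and a fit with covered length as an offset were computed and are given beside the results they bear on most. CPM values are relative to the counts of the tested regions, of genes or of motifs, and for one-group regions and the plot of peaks around genes to all counts in peaks. The test was edgeR 4.0.16 in R 4.3.3 (glmQLFit and glmQLFTest, TMM scaling, filterByExpr), with Benjamini-Hochberg adjusted p over all features of a kind. A call needed an adjusted p of 0.05 or less and groups apart. An exact two-sided permutation of 2 against 2 samples cannot give a p below 0.333. The scripts were tested on simulated data. DESeq2 1.42.0, limma 3.58.1, a replicate block, other scalings and filters, a model of all 8 samples and leaving out each sample were tried as alternatives. The deviations of same-numbered samples had a correlation of 0.04 over regions, 0.009 over genes and −0.311 over motifs. These values cannot show whether replicate number carries a batch, since the CTX deviation also holds the difference in age. Odd counts made up 9.86% and 9.55% of the matrix entries in CTX and MGE replicate 1. In CTX and MGE replicate 2 they made up 5.31% and 5.85%. The part of this difference in the results was not tested.

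The groups, gene lists, motif lists and words were chosen with earlier results of these data known. Named genes were list members and, beyond them, the 5 called genes with the largest fold in each direction that averaged at least 20 CPM and had less than 50% of their counts over the 4 samples in shared peaks, then by smallest p; other called genes were named after their values were seen. Named regions and motifs were the 5 in each direction by fold among those called, otherwise by smallest p among regions and by fold among motifs that lay apart, and the 3 highest one-group regions. Regions picked by p had 200 bp or more covered in every sample. Motif counts were the deposited counts of cut sites in peaks that hold the motif. Sequences were read from the GRCm38 reference, and 5 windows without full sequence were kept in the shares. A word was searched in its letters on both strands, N standing for any base. Some members and regions that these rules select are not reported here.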

Additional observations from a re-analysis of the deposited data

How the results depend on the processing

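The number of calls differed widely between settings, with 2 samples per group. Against 0 regions called, DESeq2 gave 9658, a model of all 8 samples 8039, an offset for covered length 630 and a minimum of 200 bp covered 198, and leaving out a sample gave 0 to 12558 (10835 without CTX replicate 1, 12558 without CTX replicate 2, 0 without either MGE sample). Against 14 genes called, DESeq2 gave 2279, the 8-sample model 512, the offset 121, peaks near start sites 42, no filter on low counts 37 and the replicate block 0, and leaving out a sample 0 to 663 (169 and 663 without CTX replicate 1 and 2, 0 without either MGE sample). Against 0 motifs, DESeq2 gave 16 and leaving out a sample 0 to 2. The fits that left out a CTX sample assume that the other CTX sample varies like the MGE pair. The fit with the replicate block called 0 regions, 0 genes and 0 motifs. For motifs, the crossed pairing, added after seeing the data, called 0 as well. Of the 14 genes, 12 were also called with the offset and in the 8-sample model, 6 with start sites only, 14 without either CTX sample, and 3 when peaks shared between genes were dropped, of which Gast and Hsd17b3 kept their direction and Dlx2 turned. The share of calls higher in CTX was 28.57% in the reported test, 54.05% without the filter, 34.71% with the offset, 38.1% with library totals as scaling, 47.62% near start sites, 67.31% with DESeq2, 72.07% in the 8-sample model, 75% with peaks of 1 gene only, and 63.91% and 84.16% without CTX replicate 1 and 2. The offset moved the median of all genes by −0.13 on the log2 scale. When peaks needed 1 CPM, CTX-only regions numbered 12338 and MGE-only regions 9266. For CTX-only regions, leaving out a sample gave 20940 to 72006; for MGE-only regions it gave 11076 to 37548. Direction turned for Morn5 with the offset (log2 0.32) and with peaks of 1 gene only (0.41), for Nmu near start sites (−0.27), and with the offset for Nfib (−0.064), Gli3 (−0.40), Boc (−0.39), Cdon (−0.96) and Meis2 (−0.15), among other list genes. Dlx2 (15.54), Dlx6 (15.23) and Lhx6 (15.05) turned with peaks of 1 gene only, because all their MGE peaks also overlap another gene. The cause of the other changes was not tested.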
